A study of Homo sapiens with 6 samples.

Results

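The genes of cholesterol and fatty acid synthesis were examined in OCI-AML3, a human acute myeloid leukaemia line, after overexpression of SLC2A3. The set holds 34 genes chosen by name from 60660 gene IDs: 18 enzymes of sterol synthesis, 5 genes of SREBP regulation and sterol traffic, 3 targets of the liver X receptors (LXR) and 8 fatty acid enzymes. 3 libraries came from cells overexpressing SLC2A3, the gene of the glucose transporter GLUT3, and 3 from cells with an empty lentiviral vector. All cultures of both groups received 250 µM vitamin C, so its effect cannot be told apart from what the groups share. The labels do not say whether each line was a clone or a pool, or whether libraries came from separate cultures. P-values therefore measure only the spread between these libraries, which may be technical.

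Cholesterol is built from acetyl-CoA by way of mevalonate, isoprenoids, squalene and lanosterol. When sterols run low, the membrane-bound factors SREBP1 and SREBP2, made from SREBF1 and SREBF2, are cleaved and switch on most genes of this route, while INSIG proteins hold them back when sterols are plentiful. LXR works in the opposite direction: it is activated by oxidised sterols and raises sterol exporters such as ABCA1 and ABCG1. Fatty acids are made from citrate-derived acetyl-CoA by ACLY, acetyl-CoA carboxylase and FASN, and are then elongated and desaturated, with SREBP1, LXR and the glucose-responsive factor ChREBP as known regulators in liver.

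SLC2A3 itself stood at 4056, 3716 and 4054 normalised reads in the SLC2A3 libraries, against 1194, 1183 and 1257 in the empty vector libraries. A normalised read is a gene's read count divided by 1 factor per library, as the authors deposited it. Libraries held 31054462 to 35770556 reads recovered from these values. The summed level of 8 myeloid markers was 44213 to 46232 normalised reads in the SLC2A3 libraries and 44127 to 45265 in the empty vector libraries. Single markers went both ways, with log2 fold changes from -0.13 (ANPEP) to 0.27 (MPO), 4 above 0 and 4 below. In the limma test described below, 4 of the 8 had an unadjusted p under 0.05, against 11.8% of all tested genes. These were LYZ and ANPEP, lower in SLC2A3 cells, and SPI1 and PTPRC, higher, and none passed after adjustment. CD3E, CD3D, MS4A1 and HBA1, which mark T cells, B cells and red cells, were at 0 in all 6 libraries, although NKG7, a gene of cytotoxic lymphocytes, had a mean of 181 normalised reads in SLC2A3 cells and 172 in empty vector cells. The noncoding RNA RN7SL1 was higher in SLC2A3 libraries, at 2233, 6026 and 1922 normalised reads against 538, 1812 and 705 in empty vector libraries. Its part in the results below was not tested. A fit without the second library of each group, given below, leaves this difference between the groups in place. In bulk RNA, fewer cells expressing a gene and less RNA per cell cannot be told apart.

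Promoter windows help to show which members carry the DNA letters that SREBP and its partner NF-Y are known to bind. RefSeq windows on GRCh38.p14, from 250 bases before to 50 after each start site, were held for 29 of the 34 members; ABCG1, ACAT2, FASN, FDFT1 and SQLE had none in the table. The windows below belong to SCD and to the 3 members outside the LXR targets with the next lowest p-values, and capitals mark CCAAT, the NF-Y box, and TCACNCCAC, a form of the sterol regulatory element, on either strand. SCD lies at chr10:100346983-100347282, plus strand, HSD17B7 at chr1:162790452-162790751, plus strand, SREBF2 at chr22:41832855-41833154, plus strand, and STARD4 at chr5:111512486-111512785, minus strand.
SCD: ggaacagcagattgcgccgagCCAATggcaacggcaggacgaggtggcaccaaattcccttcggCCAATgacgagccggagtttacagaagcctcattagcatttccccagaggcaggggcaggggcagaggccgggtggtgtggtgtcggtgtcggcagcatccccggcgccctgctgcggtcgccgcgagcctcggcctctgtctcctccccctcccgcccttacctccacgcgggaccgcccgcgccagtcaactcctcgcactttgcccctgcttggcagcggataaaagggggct
HSD17B7: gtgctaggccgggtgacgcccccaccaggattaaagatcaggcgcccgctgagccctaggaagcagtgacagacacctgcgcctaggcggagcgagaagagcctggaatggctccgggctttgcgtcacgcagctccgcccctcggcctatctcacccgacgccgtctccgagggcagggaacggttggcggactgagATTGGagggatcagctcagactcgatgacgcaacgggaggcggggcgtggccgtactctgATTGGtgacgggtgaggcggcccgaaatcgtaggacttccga
SREBF2: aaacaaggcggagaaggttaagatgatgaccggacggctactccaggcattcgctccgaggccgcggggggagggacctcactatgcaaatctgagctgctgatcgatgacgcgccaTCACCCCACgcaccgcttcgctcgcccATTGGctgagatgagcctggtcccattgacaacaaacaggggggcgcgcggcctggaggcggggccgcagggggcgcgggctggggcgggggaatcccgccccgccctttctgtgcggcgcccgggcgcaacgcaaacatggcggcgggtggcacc
STARD4: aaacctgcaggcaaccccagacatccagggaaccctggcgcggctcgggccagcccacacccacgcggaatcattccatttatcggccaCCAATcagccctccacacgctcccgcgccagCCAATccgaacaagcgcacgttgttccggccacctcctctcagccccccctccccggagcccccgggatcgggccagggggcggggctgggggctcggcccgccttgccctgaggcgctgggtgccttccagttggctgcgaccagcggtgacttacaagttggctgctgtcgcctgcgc

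All 4 windows held CCAAT, at -229 and -186 from the start site in SCD, -52 and 9 in HSD17B7, -106 in SREBF2 and -161 and -130 in STARD4. CCAAT was present in 22 of the 29 members with a window, among them 13 of 15 sterol synthesis genes, against 42.1% of 15843 protein-coding genes with a window. TCACNCCAC was present in SREBF2 alone of these members, at -133, against 1.51% of protein-coding genes. The E-box CACGTG was found in 5 members (10.9% of protein-coding genes) and the GC box GGGCGG in 27 (64.3%). An exact copy of the LXR direct-repeat element was found in no member window, ABCA1 and MYLIP included, and in 0.013% of protein-coding genes. Copies with mismatched letters were not searched for, so this result does not show that these windows lack an LXR element. A match is a run of letters, not a measured binding site.

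The sterol synthesis genes were nearly level between the groups, SCD rose, the 3 LXR targets had higher means and SREBF2 and STARD4 lower means in SLC2A3 cells. Of the 34 members, 33 reached 1 normalised read in 3 or more libraries and were tested with limma on log2(value + 1), with Benjamini-Hochberg adjustment over all 28015 tested genes and a threshold of 0.05. All 33 had means of at least 19 normalised reads in both groups, so none was tested only through the group in which it was high. ELOVL6 was not tested. SCD was the 1 member past the threshold, 1 of 33, against 1.49% of all tested genes (0.692% higher and 0.8% lower). An unadjusted p under 0.05 was found for 7 members, against 11.8% of all tested genes. The members' median standard error (SE) was 0.078, against 0.33 for all tested genes, so these shares are not at like precision. The 2 groups did not overlap for 8 members, against 16.3% of all tested genes. Of these, 3 were higher in SLC2A3 cells, against 8.04% of all tested genes, and 5 lower, against 8.27%. The members' median log2 fold change was 0.0031, with 17 above 0 and 16 below. That of all tested genes was 0.0014, with 49.7% of them below 0.

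**Figure D1:**
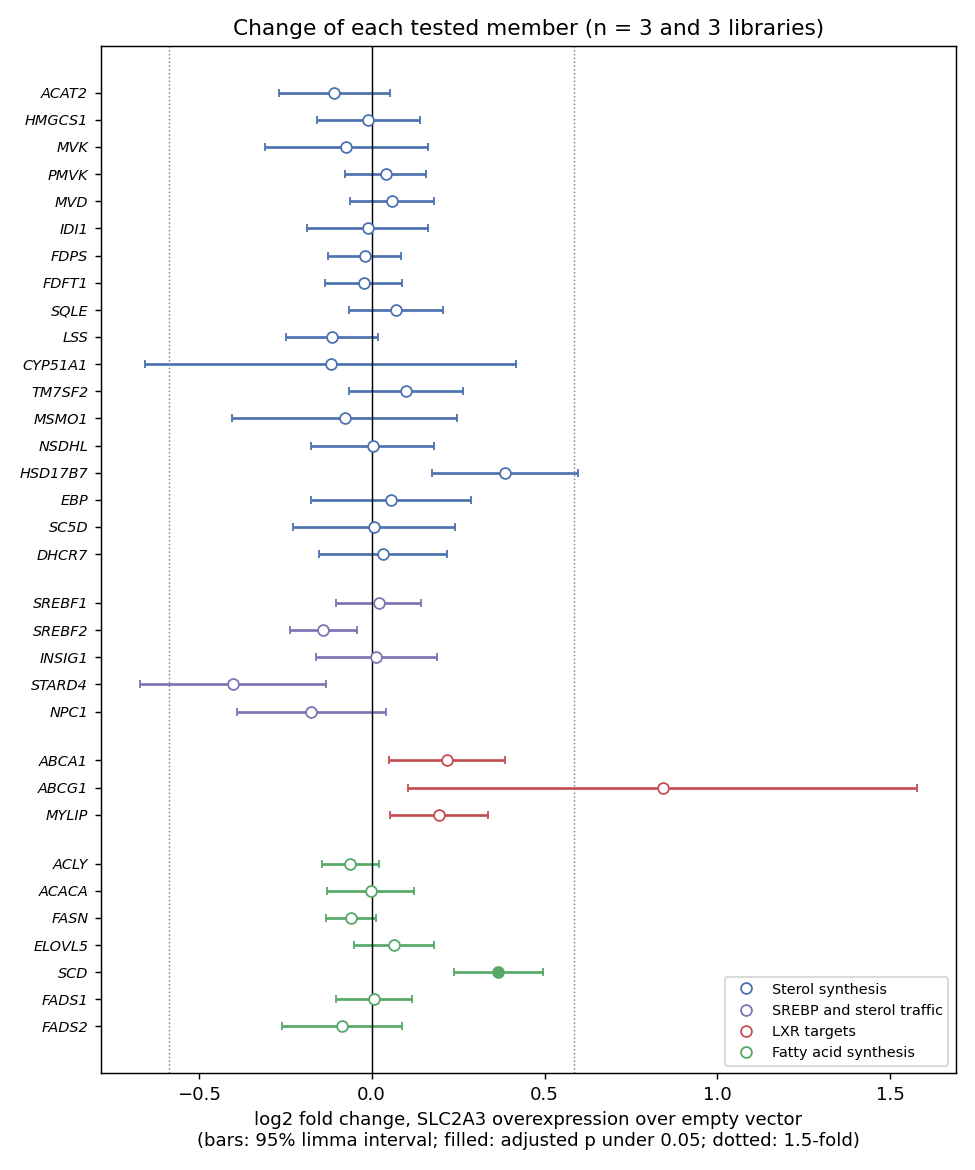
Log2 fold change of each of the 33 tested members, SLC2A3 overexpression over empty vector, with its 95% limma interval; colours mark the 4 groups of genes and a filled point an adjusted p under 0.05. SCD, at 0.37, is the filled point, and 22 of the 33 members lie within 0.1 of 0.

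Sterol synthesis was expressed over a wide range of levels. Per kb of exon, PMVK, which phosphorylates mevalonate phosphate, was highest, with a mean of 2187 normalised reads per kb in SLC2A3 cells and 2127 in empty vector cells. FDPS, which makes farnesyl diphosphate, followed with 828 in SLC2A3 cells and 840 in empty vector cells. FDFT1, the squalene synthase, had 450 and 457, and MVD, the mevalonate diphosphate decarboxylase, 418 and 401, in the same order of groups. CYP51A1, the lanosterol demethylase, was lowest as counted, at 17.6 and 19.0 normalised reads per kb. It shares exon bases with other genes on the same strand, as given below. Lengths are the summed exons of all GENCODE 29 transcripts of a gene, so a gene with many alternative exons is placed too low.

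**Figure D2:**
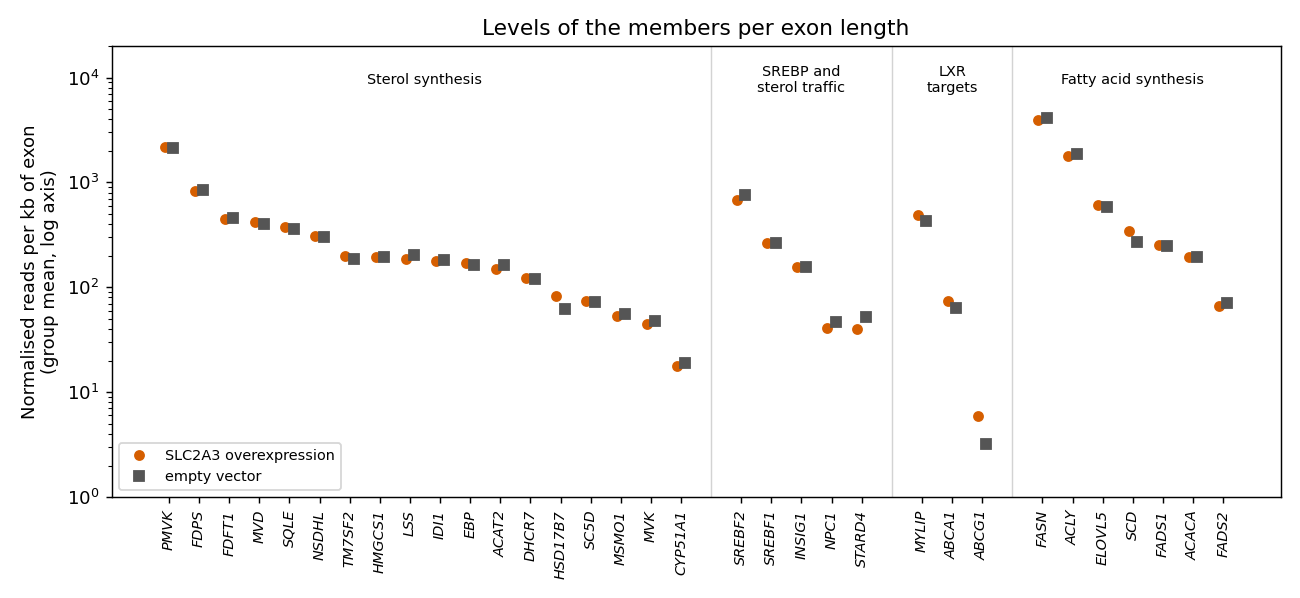
Group means in normalised reads per kb of exon on a log axis, SLC2A3 overexpression as circles and empty vector as squares, ordered by level within each group of genes; ELOVL6 is not drawn. FASN is highest, at 3957 in SLC2A3 cells and 4127 in empty vector cells, and ABCG1 lowest, at 5.88 and 3.18.

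Limma called 0 of the 18 sterol synthesis genes, and the unadjusted p was under 0.05 for 1. edgeR called 1 of them, against 3.29% of all genes it tested, and DESeq2 called 1 of the 16 to which it gave an adjusted p, against 7.98%. Both calls were HSD17B7, and DESeq2 without independent filtering called 0, against 1.26% of all genes. Their median log2 fold change was -0.0031, with 9 genes above 0 and 9 below. This median lay between -0.028 and 0.023 over the alternatives. Summed over the 18 genes, the libraries held 18779, 18889 and 19357 normalised reads in SLC2A3 cells, against 18582, 19283 and 18802 in empty vector cells. These sums overlap, and their means of 19009 ± 307 and 18889 ± 358 (SD, n = 3 each) differed by less than the spread between libraries.

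The intervals of most sterol genes were narrow. For 16 of the 18 genes the 95% interval of the log2 fold change lay within a 1.5-fold change in either direction, the exceptions being CYP51A1 and HSD17B7. HMGCS1, which makes HMG-CoA and is a standard SREBP2 target, had 863, 950 and 930 normalised reads in SLC2A3 libraries, against 948, 871 and 941 in empty vector libraries. Its groups overlap, and its log2 fold change was -0.01 (95% interval -0.16 to 0.14). SQLE, the squalene epoxidase, had 1490, 1577 and 1778 normalised reads in SLC2A3 libraries, against 1575, 1556 and 1475 in empty vector libraries. The third SLC2A3 library of SQLE was the highest, and the log2 fold change was 0.07 (95% interval -0.07 to 0.21).

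The other enzymes up to squalene were also nearly level. ACAT2, the cytosolic thiolase, had 663, 627 and 651 normalised reads in SLC2A3 libraries, all below the 702, 694 and 697 in empty vector libraries. Its log2 fold change of -0.11 did not pass (95% interval -0.27 to 0.05, limma adjusted p = 0.669). MVK, the mevalonate kinase, had a log2 fold change of -0.07, PMVK 0.04 and MVD 0.06. IDI1, the isopentenyl diphosphate isomerase, had -0.01, FDPS -0.02 and FDFT1 -0.02.

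The enzymes after squalene were similar. LSS, which closes the lanosterol ring, had 1392, 1306 and 1355 normalised reads in SLC2A3 libraries, against 1448, 1562 and 1382 in empty vector libraries, with an overlap of 1 library in each group. Its log2 fold change was -0.11 (95% interval -0.25 to 0.02, limma adjusted p = 0.525). TM7SF2, a sterol reductase, had 0.10, MSMO1, a sterol methyl oxidase, -0.08, and NSDHL, a sterol dehydrogenase, 0.0031. EBP, the sterol isomerase, had 0.06, SC5D, a sterol desaturase, 0.0073, and DHCR7, which makes cholesterol in the last step of its branch, 0.03.

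HSD17B7 and CYP51A1 were the highest and lowest changes of the arm. HSD17B7, a ketosteroid reductase of the late pathway, had 409, 381 and 387 normalised reads in SLC2A3 libraries, against 293, 314 and 291 in empty vector libraries. All 3 SLC2A3 libraries were above all 3 empty vector libraries. Its mean was 1.31-fold higher, and the log2 fold change of 0.39 (SE 0.10) narrowly missed the threshold (limma adjusted p = 0.053). It passed in 5 of 18 alternatives, with adjusted p of 0.0303 to 0.202 over all of them. edgeR with TMM factors gave 0.0332, and limma on genes with at least 50 normalised reads in 3 libraries gave 0.0303, where 5.53% of all genes tested were called. The related pseudogene HSD17B7P2, named after its values were seen, had means of 33.4 normalised reads in SLC2A3 cells and 23.4 in empty vector cells, and how reads were divided between the copies is not stated in the labels or notes.

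CYP51A1 had 67.8, 77.7 and 43.8 normalised reads in SLC2A3 libraries, against 89.6, 60.0 and 55.1 in empty vector libraries. The libraries of both groups were mixed, and the log2 fold change of -0.12 had a wide 95% interval of -0.65 to 0.42. A 1.5-fold lower level of CYP51A1 lies inside that interval.

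**Figure D3:**
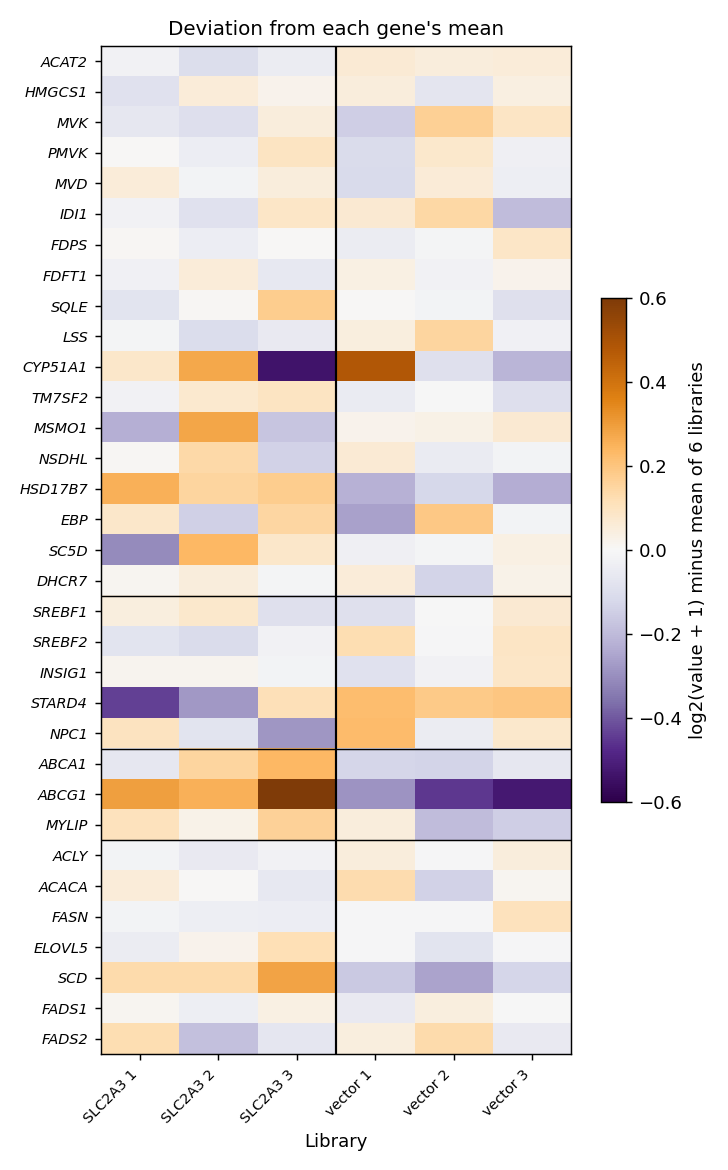
Deviation of log2(value + 1) from each gene's mean over the 6 libraries, for the 33 tested members in rows and the SLC2A3 libraries, then the empty vector libraries, in columns; the colour scale ends at 0.6 in either direction, which 1 value, of ABCG1, passes. SCD, HSD17B7 and ABCG1 are the rows with all SLC2A3 libraries above all empty vector libraries.

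Among the regulators, neither SREBP gene passed the test in limma. SREBF2, which encodes SREBP2, the main activator of sterol synthesis, had 5129, 5009 and 5337 normalised reads in SLC2A3 libraries, against 5908, 5388 and 5761 in empty vector libraries. The groups did not overlap, but the gap was small, 5337 against 5388 normalised reads. The log2 fold change was -0.14 (SE 0.047) and did not pass (unadjusted p = 0.0063, limma adjusted p = 0.165). DESeq2 with its default filtering was the 1 of 18 alternatives that called it (adjusted p = 0.0407), and adjusted p ran from 0.0407 to 0.491 over the 18. SREBF1, which encodes SREBP1, had 2191, 2241 and 1993 normalised reads in SLC2A3 libraries, against 1991, 2117 and 2224 in empty vector libraries. Its groups overlap throughout, with a log2 fold change of 0.02 (95% interval -0.10 to 0.14), and -0.021 to 0.07 over the alternatives. Gene totals do not separate the SREBP1a and SREBP1c transcripts of SREBF1, and they say nothing of cleavage, by which SREBPs are activated.

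INSIG1, the sterol-sensing retention factor and itself an SREBP target, was level, with 577, 576 and 564 normalised reads in SLC2A3 libraries and 537, 561 and 605 in empty vector libraries. Its log2 fold change was 0.01 (95% interval -0.16 to 0.19). STARD4, a cytosolic sterol carrier, had 189, 212 and 279 normalised reads in SLC2A3 libraries, against 300.5, 292 and 294 in empty vector libraries. The empty vector libraries lay close together, and the third SLC2A3 library was nearer to them than to the other two. The log2 fold change was -0.40 (SE 0.13, unadjusted p = 0.0051, limma adjusted p = 0.151), and it was -0.28 without the first and -0.56 without the third SLC2A3 library. STARD4 passed in 0 of 18 alternatives, including edgeR and DESeq2, with the lowest adjusted p at 0.0565. NPC1, which exports cholesterol from lysosomes, had a log2 fold change of -0.17 (95% interval -0.39 to 0.04, limma adjusted p = 0.57).

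Exons of some members overlap those of a gene on the other strand, and the labels and notes do not state whether the counting used strand. STARD4-AS1, which overlaps STARD4, had a log2 fold change of 0.15, and RAI1, which overlaps SREBF1, -0.23 (limma adjusted p = 0.773 and 0.0758). SREBF2-AS1, which overlaps SREBF2, had -0.18 (limma adjusted p = 0.861). ACAT2 overlaps SOD2 and TCP1, FADS1 overlaps FADS2, and MVK, FDPS and NPC1 overlap MMAB, RUSC1-AS1 and RMC1. On the same strand, FADS2 shares up to 49 exon bases with FEN1, which had a mean of 5007 normalised reads. TM7SF2 shares up to 16 with VPS51, which had a mean of 5377. CYP51A1 shares up to 1685 with AC000120.2 and up to 99 with AC000120.3, and FADS1 up to 80 with MIR1908. AC000120.2, AC000120.3 and MIR1908 each had a mean of 0. How reads in shared exons were assigned is not stated, and its effect on the level of CYP51A1 was not tested. Values of these members may hold reads of the partner or lack reads shared with it.

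The 3 LXR targets had higher means in SLC2A3 cells, and none passed the test in limma, edgeR or DESeq2. All 3 had an unadjusted p under 0.05 in limma, against 11.8% of all tested genes. Their median SE was 0.082, against 0.33 for all tested genes, so this is not a comparison at like precision. ABCA1, which exports cholesterol to lipid-poor apolipoproteins, had 743, 865 and 917 normalised reads in SLC2A3 libraries, against 711, 709 and 743 in empty vector libraries. The first SLC2A3 library was level with the third empty vector library, and the other two were higher. The log2 fold change was 0.22 (SE 0.082, unadjusted p = 0.0129, limma adjusted p = 0.236), and it was 0.31 without the first and 0.15 without the third SLC2A3 library.

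ABCG1, which exports cholesterol to mature lipoproteins, was the member with the fewest reads among those tested. It had 32.5, 31.6 and 43.8 normalised reads in SLC2A3 libraries, against 21.4, 19.0 and 18.0 in empty vector libraries. The groups did not overlap, and the log2 fold change of 0.84 was the largest of the members but also the least precise (95% interval 0.11 to 1.58, limma adjusted p = 0.325). MYLIP, a ubiquitin ligase that removes lipoprotein receptors, had 1486, 1405 and 1546 normalised reads in SLC2A3 libraries, against 1431, 1205 and 1248 in empty vector libraries. The first empty vector library overlapped the SLC2A3 group. MYLIP was 0.19 higher on the log2 scale (limma adjusted p = 0.202, SE 0.069), and the difference was 0.27 without that library and 0.14 without the second empty vector library.

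The median log2 fold change of the LXR targets was 0.22, and 0.16 to 0.31 over the alternatives, against 0.0014 for all tested genes. 3 genes are too few for this to set the group apart, and the genes were listed with earlier results known. The receptors themselves were NR1H2 and NR1H3, which encode LXR beta and alpha, with log2 fold changes of -0.0031 and -0.10, and their partner RXRA, with 0.05; none of them passed. LPCAT3 and SMPDL3A, further LXR targets that are not among the members, had log2 fold changes of -0.11 and 0.13 with intervals that include 0.

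**Figure D4:**
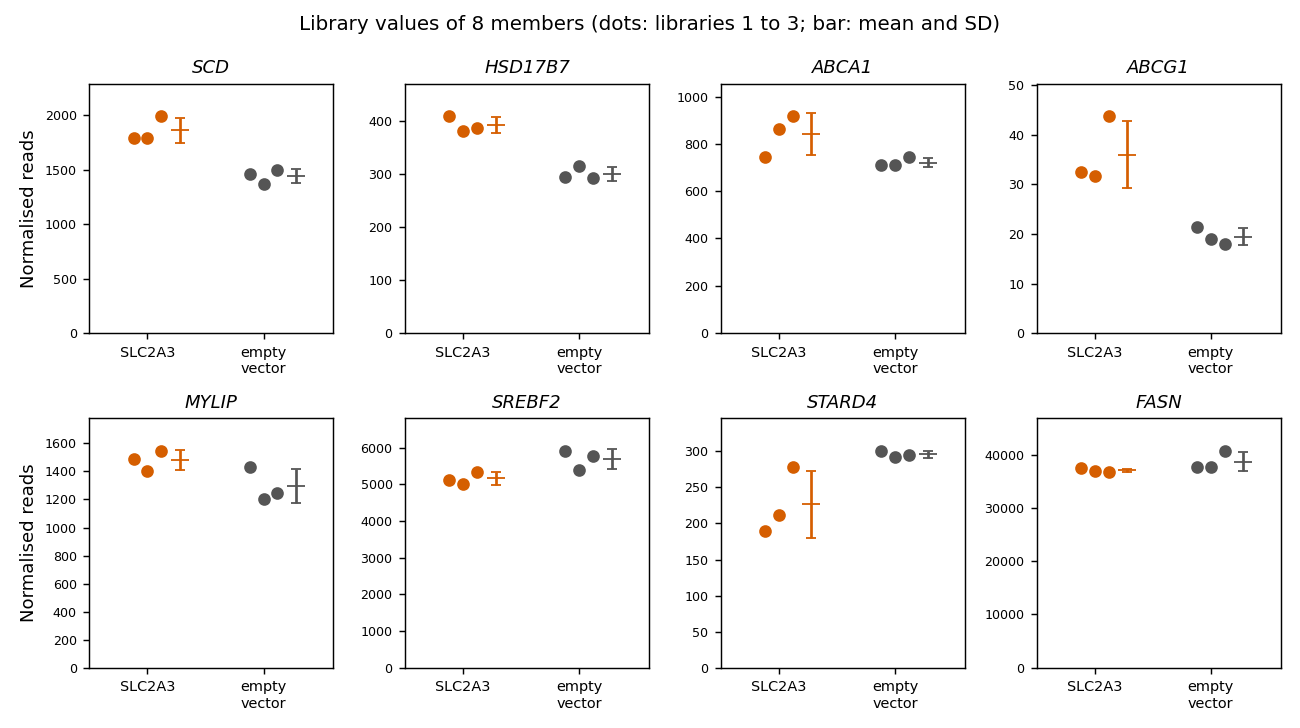
Normalised reads of 8 members in each library, with the mean and SD of 3 libraries per group; axes start at 0 and differ between panels. SCD, HSD17B7 and ABCG1 are higher in every SLC2A3 library than in every empty vector library, and STARD4, SREBF2 and FASN lower.

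In the fatty acid arm SCD rose and the other genes were nearly level. SCD encodes stearoyl-CoA desaturase, which puts the first double bond into saturated fatty acids, and is a target of both SREBP1 and LXR. It had 1795, 1795 and 1992 normalised reads in SLC2A3 libraries, against 1462, 1371 and 1496 in empty vector libraries. Every SLC2A3 library was above every empty vector library, and the mean was 1861 ± 114 in SLC2A3 cells and 1443 ± 64.4 in empty vector cells (SD, n = 3 each). This is a 1.29-fold rise, with a log2 fold change of 0.37 (SE 0.063, 95% interval 0.24 to 0.49, limma adjusted p = 0.0012). SCD passed in all 18 alternatives, with log2 fold changes of 0.32 to 0.39 and adjusted p of 1.28e-05 to 0.0372, the highest without the third SLC2A3 library. Without the second library of each group, the highest of its group in RN7SL1, the log2 fold change of SCD was 0.35 (limma adjusted p = 0.000935). The libraries left still differed in RN7SL1, at 2233 and 1922 normalised reads in SLC2A3 cells against 538 and 705 in empty vector cells. SCD is on chromosome 10, 100347124 to 100364834 in GRCh38 (ENSG00000099194.6, GENCODE 29).

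The enzymes that feed SCD did not move with it. FASN, the fatty acid synthase, was the most abundant member, with 37387, 36974 and 36790 normalised reads in SLC2A3 libraries, against 37646, 37615 and 40674 in empty vector libraries. The SLC2A3 libraries were all lower, but the log2 fold change was -0.06 (95% interval -0.13 to 0.01, limma adjusted p = 0.56). ACLY, which cleaves citrate to acetyl-CoA, had 9325, 9087 and 9308 normalised reads in SLC2A3 libraries, against 9758, 9401 and 9780 in empty vector libraries. Its groups did not overlap either, with a log2 fold change of -0.06 (95% interval -0.14 to 0.02, limma adjusted p = 0.609). ACACA, which makes malonyl-CoA, had -0.0029 (95% interval -0.13 to 0.12).

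The elongase ELOVL5 had a log2 fold change of 0.06 and the desaturase FADS1 0.0076, both with limma adjusted p over 0.05. FADS2, the desaturase that starts polyunsaturated fatty acid synthesis, had 825, 666 and 721 normalised reads in SLC2A3 libraries, against 781, 831 and 730 in empty vector libraries. Its libraries overlap, and its log2 fold change of -0.09 was the lowest of the arm (95% interval -0.26 to 0.09). The elongase ELOVL6, in contrast to ELOVL5, had 0 reads in all SLC2A3 libraries and in the first empty vector library, and 2 and 1 reads in the others, so it was at the limit of detection in these cells.

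The median log2 fold change of the 7 tested fatty acid genes was -0.0029, with 3 above 0 and 4 below, and all 7 intervals lay within a 1.5-fold change. Over the alternatives this median ran from -0.040 to 0.030. The summed level was 56745, 55860 and 56335 normalised reads in SLC2A3 libraries, against 57144, 56310 and 60055 in empty vector libraries. FASN makes up most of that sum, and the groups overlap.

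Further genes of lipid metabolism, 54 that are not members, showed 1 higher and 3 lower gene past the threshold, against 0.692% and 0.8% of all tested genes. All tested genes include many with few reads. On genes with at least 50 normalised reads in 3 libraries, 1 was higher and 3 lower of 51, against 5.53% called of all genes. Default DESeq2 also called 1 higher and 3 lower of 51, against 7.98%. Their median log2 fold change was -0.0042. ACACB, the acetyl-CoA carboxylase whose malonyl-CoA restrains fatty acid import into mitochondria, fell. It had 653, 515 and 625 normalised reads in SLC2A3 libraries, against 824, 747 and 907 in empty vector libraries, a difference of -0.47 on the log2 scale (limma adjusted p = 0.0045, SE 0.092). CPT1A, which carries out that import and is inhibited by malonyl-CoA, fell too, with 1963, 2028 and 1913 normalised reads in SLC2A3 libraries, against 2774, 2604 and 2427 in empty vector libraries. On the log2 scale CPT1A fell by 0.40 (limma adjusted p = 0.00016, SE 0.058). Neither gene's groups overlap.

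MLXIPL, which encodes ChREBP, fell slightly, with 6560, 5961 and 6355 normalised reads in SLC2A3 libraries, against 7410, 7444 and 7272 in empty vector libraries. On the log2 scale MLXIPL fell by 0.23 (limma adjusted p = 0.0041, SE 0.045). ACACB, CPT1A and MLXIPL passed in all 18 alternatives. HILPDA, a lipid droplet protein that inhibits triglyceride breakdown and is induced by hypoxia, rose, with 996, 968 and 1023 normalised reads in SLC2A3 libraries, against 838, 847 and 714 in empty vector libraries. HILPDA was 0.32 higher on the log2 scale (limma adjusted p = 0.026, SE 0.077). HILPDA lost its call in 5 of 18 alternatives, with a pseudocount of 0.1 (adjusted p = 0.0618), without any 1 of the SLC2A3 libraries (0.0542 to 0.175) and without the third empty vector library (0.25, log2 fold change 0.24).

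Of the 14 storage and oxidation genes on that list, 8 had an unadjusted p under 0.05, against 11.8% of all tested genes. Their median SE was 0.056, against 0.33 for all tested genes, so the shares are not at like precision. Besides CPT1A and HILPDA, these included the triglyceride synthesis genes LPIN1, DGAT1 and DGAT2, with log2 fold changes of 0.20, 0.12 and 0.24, and the droplet coat gene PLIN2 with 0.14. The lipase gene PNPLA2 had -0.13 and the oxidation gene ACADVL -0.09. None of these 6 passed after adjustment, at limma adjusted p of 0.138 for LPIN1, 0.239 for DGAT2 and 0.299 for DGAT1.

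**Figure D5:**
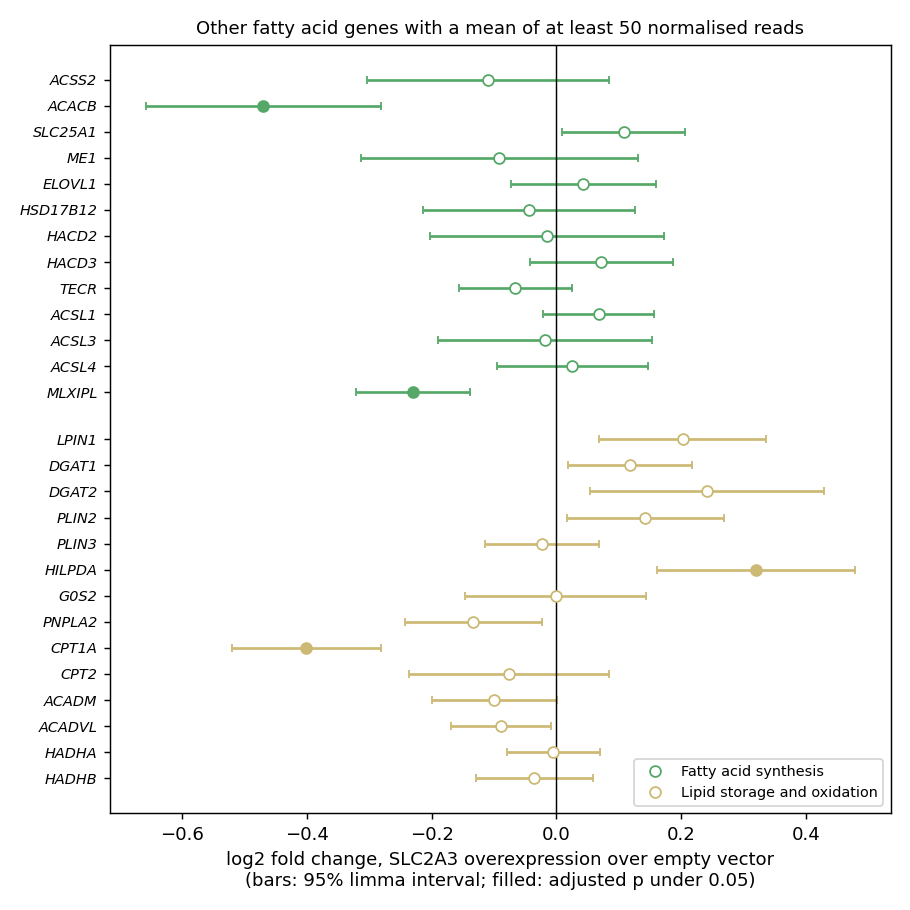
Log2 fold change, SLC2A3 overexpression over empty vector, of 27 further fatty acid genes with a mean of at least 50 normalised reads, with 95% limma intervals; filled points have an adjusted p under 0.05. ACACB, MLXIPL and CPT1A are filled below 0 and HILPDA is filled above 0.

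The machinery that processes SREBP was level. SCAP, its escort protein, had a log2 fold change of -0.08, the proteases MBTPS1 and MBTPS2 -0.06 and 0.04, and INSIG2 0.09. None of the 9 SREBP processing genes and none of the 8 further sterol and isoprenoid genes were called by limma, edgeR or DESeq2. The unadjusted p was under 0.05 for 0 of the 9 and for 1 of the 8. That 1 was DHDDS, which makes dolichol precursors, with a log2 fold change of 0.15 (limma adjusted p = 0.42).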

How the data were processed

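Values are from 6 RNA-seq libraries made with a NEBNext Ultra II Directional kit from Trizol-extracted RNA, per the labels' protocols. BWA, TopHat2 and hg38 appear in the submitters' processing notes, without roles; counter and annotation are not given in the sources used here. The deposited values are a signal, in which the authors scaled each library's gene counts by a single factor. That follows from the values, since 100% were whole multiples of 1 step per library within 0.001 reads, and the factors equalled DESeq2 size factors. Of 60660 IDs, 60597 matched a symbol.

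The test was limma 3.58.1 (R 4.3.3) with a variance trend on log2(value + 1), with group as the only term, over genes that reached 1 in 3 or more libraries. Fold changes on this scale understate the change of low genes. Alternatives were edgeR 4.0.16 and DESeq2 1.42.0 on recovered reads, other pseudocounts, filters and scalings, a replicate block and left-out libraries. The functions were tested on simulated counts. All listed members are accounted for; library values are given for members called, with an unadjusted p under 0.05 or at the ends of each arm, and for some chosen after their values were seen (HMGCS1, SQLE, ACAT2, LSS, INSIG1, FASN, ACLY and ELOVL6). Other pathway genes are named where they passed; the others of them that are named were chosen after their values were seen. Members and lists were chosen with earlier results of these data known. No 2 libraries of a group agreed within sampling noise (chi-square per gene 3.50 to 6.78), so all 6 were kept. Intervals cover the spread between libraries.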

Additional observations from a re-analysis of the deposited data

How the results depend on the processing

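SCD kept its direction and its call under all 18 alternatives. The count of members higher was 2 in place of 1 in 5 alternatives, HSD17B7 being the second each time. It was 2 of 34 with no filter on low values, against 235 of 37328 genes called higher. With a filter of at least 50 in 3 libraries it was 2 of 32, against 322 of 13374. edgeR called 2 of 33 with either factor, against 285 of 18630 with TMM and 297 with relative log expression. DESeq2 with default filtering called 2 of 30 higher, against 343 of 9827. That DESeq2 fit also called 1 member, SREBF2, lower in place of 0, against 441 of 9827. Over all genes, 194 were higher and 224 lower; the counts were 322 and 417 with the filter of at least 50, where fewer genes were tested, 297 higher with edgeR and relative log expression factors, 343 and 441 with default DESeq2, and 144 lower with a pseudocount of 0.1. Leaving out 1 library gave 100 to 222 higher and 88 to 244 lower, with the lowest of both without the third SLC2A3 library. It gave a sterol median of -0.021 to 0.023, an LXR target median of 0.16 to 0.31 and a fatty acid median of -0.040 to 0.0031, 1 member higher and 0 lower in each case. The fatty acid median was -0.031 with no filter and -0.033 with DESeq2, with or without independent filtering, where ELOVL6 entered it. Without the second library of each group the sterol median was -0.028 and the fatty acid median 0.030. The labels state no pairing. Deviations of libraries with the same number correlated at -0.11, 0.01 and -0.0014 over 11730 genes. With 3 libraries per group this cannot exclude a shared batch, and RN7SL1 was highest in the second library of both groups. A replicate block gave 167 higher, 196 lower and 1 member higher. Of the tested members, ABCG1 and CYP51A1 had the widest intervals, and ELOVL6 had 3 reads in all 6 libraries together.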
